A study of Arabidopsis thaliana with 12 samples.

Results

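The hypoxia response of Arabidopsis siliques that overexpressed the hemoglobin AtHb1 was set against that of wild-type siliques, gene by gene, on all 12 of the 12 arrays of the series. The quantity described is the genotype by hypoxia interaction, that is the log2 change under hypoxia in AtHb1 plants minus the log2 change under hypoxia in WT plants. A negative interaction means that the change in AtHb1 plants was lower than in WT, and a positive one that it was higher. It was measured for all 22746 probe sets of the ATH1 array that are not AFFX controls, and no other selection was made. The 4 groups held 3 arrays each: AtHb1 hypoxia, AtHb1 control, WT hypoxia and WT control. Hypoxia was 10.5% oxygen and control 21% oxygen, both for 1 hour in darkness, applied to whole plants 45 days after germination, whose siliques were taken 11 to 12 days after pollination. AtHb1 plants were Col-0 carrying LeB4::AtHb1, the AtHb1 coding region behind the seed-specific LeB4 promoter, and WT plants were Col-0. Per the study's methods the transgenic plants were homozygous progeny of a single line, L1-1, so genotype and line cannot be told apart. Each array was hybridised with RNA from a pool of intact siliques of 1 treatment run. Seeds and silique wall were therefore measured together, while the transgene promoter acts in the seed. In such bulk samples fewer cells of a type and less RNA per cell cannot be told apart.

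Non-symbiotic hemoglobins such as AtHb1 bind oxygen tightly and convert nitric oxide to nitrate, and the endogenous gene is itself induced by low oxygen. When oxygen falls, plant cells stabilise group VII ERF transcription factors, which switch on a small core of genes for fermentation, haem proteins and oxygen sensing. Seeds in mid maturation fill oil bodies and protein bodies and build up late embryogenesis abundant (LEA) proteins under the control of abscisic acid and seed-specific regulators.

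Hypoxia changed transcripts in both genotypes, and for a set of genes the change differed. At an adjusted p under 0.05 (limma with Benjamini-Hochberg adjustment over all 22746 probe sets) and a difference above 2-fold, which is what "called" means below, the interaction was called for 456 probe sets (2.00%). Of these, 343 were negative (1.51%) and 113 positive (0.497%). In the same fit 254 probe sets were called for the AtHb1 response, 153 up and 101 down (1.12%, 0.673% and 0.444%), and 414 for the WT response, 348 up and 66 down (1.82%, 1.53% and 0.290%). Over all probe sets the median interaction was 0.02, the median AtHb1 response 0.00 and the median WT response -0.03, all on the log2 scale, and the median standard error (SE) of an interaction was 0.127. By the adjusted p alone the interaction passed for 2793 probe sets (12.3%), of which 1587 were positive (6.98%) and 1206 negative (5.30%). Negative interactions were thus in the majority with the 2-fold limit and not without a fold limit. The AtHb1 and WT responses, which share no array, had Pearson's r = 0.348 across probe sets, given as a description because genes are not independent replicates. The p-values measure the spread between the 3 pools of each group.

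The calls were of 3 kinds. The response was smaller in AtHb1 for 195 probe sets, meaning that the WT response passed an adjusted p of 0.05 and the AtHb1 response was smaller in size and either ran the same way or did not pass. For 135 of them WT rose, with medians of 0.02 in AtHb1 and 1.43 in WT. For the other 60 WT fell, with medians of 0.02 in AtHb1 and -1.18 in WT. The response was larger in AtHb1 for 112, of which 93 fell in AtHb1 (median response -1.10 in AtHb1 and 0.38 in WT) and 19 rose in AtHb1 (1.09 in AtHb1 and -0.16 in WT). This count of 112 was 68 without AtHb1 hypoxia replicate 2, and 73 when interaction and responses were judged by unadjusted p. Both responses passed and ran in opposite directions for 138, of which 106 fell in AtHb1 and rose in WT (medians -0.73 and 0.87) and 32 rose in AtHb1 and fell in WT (medians 0.55 and -0.68). The remaining 11 fell in none of these classes. As a background to these classes, 5026 of all probe sets passed for the AtHb1 response at an adjusted p under 0.05 (22.1%, with 12.6% up and 9.51% down) and 3601 for the WT response (15.8%, with 8.70% up and 7.13% down). Opposite responses above 2-fold in both genotypes were seen for 17 probe sets, and all 17 fell in AtHb1 and rose in WT. The class depends on the test of each response: by the signs of the estimates alone 343 of the 456 ran in opposite directions, 97 ran the same way with AtHb1 smaller and 16 the same way with AtHb1 larger. The negative side also held the large differences: all 68 called probe sets with an interaction beyond 2 in size and all 18 beyond 3 were negative. With a prior variance that follows signal and resists outlying genes (limma's trend and robust options), 49 of the 68 and 5 of the 18 were called, against 347 of the 388 called probe sets with an interaction up to 2.

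**Figure D1:**
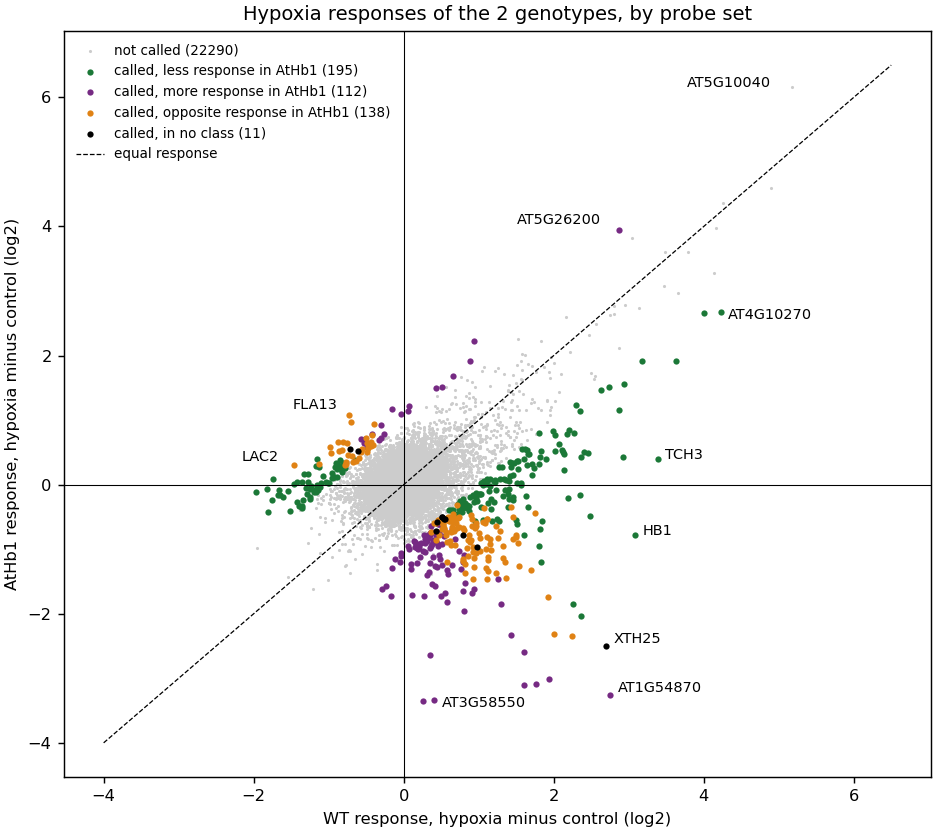
Hypoxia response (hypoxia minus control, log2) of each of the 22746 probe sets in AtHb1 (y axis) and in WT (x axis), with the called probe sets coloured by class and the dashed line marking equal responses. Called probe sets below the line (343) outnumber those above it (113), and the farthest ones lie at the lower right, where AtHb1 fell and WT rose.

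The arrays of a group agreed closely, with within-group correlations of 0.993 to 0.998, but the seed maturation genes moved together within groups. Over the 25 measured genes of the late maturation list the mean log2 signal was 8.00, 7.66 and 8.36 in AtHb1 hypoxia and 8.35, 9.45 and 9.23 in AtHb1 control, against 8.42, 8.43 and 8.51 in WT hypoxia and 7.68, 7.66 and 7.00 in WT control. AtHb1 control replicate 1, AtHb1 hypoxia replicate 2 and WT control replicate 3 read lowest in their groups, and AtHb1 control replicate 1 lay within the range of AtHb1 hypoxia. Among the called probe sets with an interaction below -2, list members left out, 43 of 54 followed this list mean within groups (r above 0.7 of the deviations from group means over the 12 arrays), against 483 of all 22721 probe sets outside the list. The signal difference between 3' and 5' probe sets of the control transcripts, a sign of RNA degradation or short labelled RNA, averaged 1.89 in AtHb1 hypoxia and 1.81 in AtHb1 control, against 1.41 in WT hypoxia and 1.29 in WT control, so it moved with genotype and gave an interaction of -0.0352. The bioC spike averaged 9.65 and 9.02 in AtHb1 hypoxia and control, against 7.52 and 7.23 in WT hypoxia and control, and read 8.13 on AtHb1 control replicate 1. The bioC interaction did not pass (adjusted p = 0.77 and 0.443 for its 2 probe sets). The part of these differences in the results was not tested beyond the alternatives given with each result and in the closing section.

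**Figure D2:**
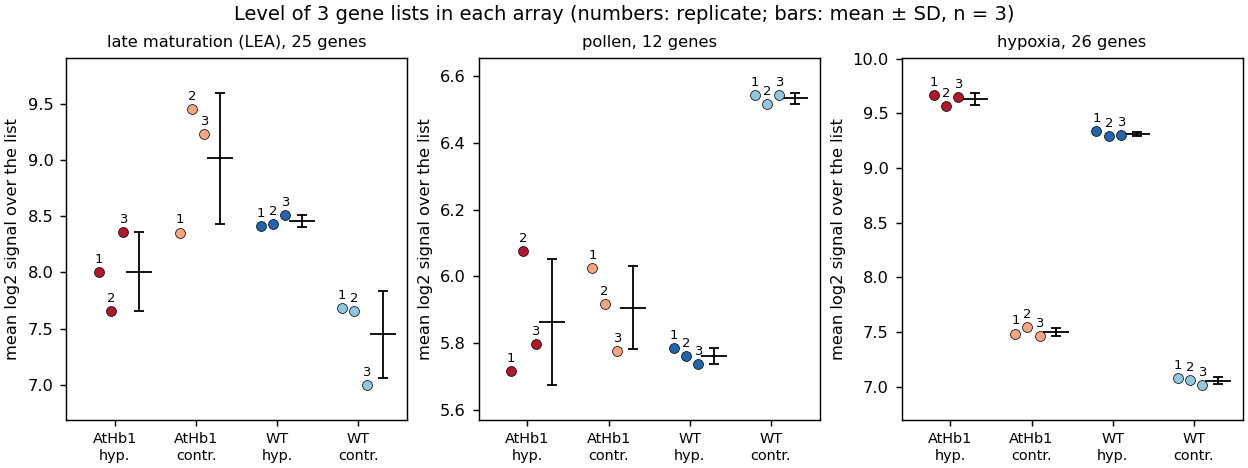
Mean log2 signal of the late maturation, pollen and hypoxia lists on each of the 12 arrays (points, grouped by genotype and treatment, with group mean ± SD, n = 3). The late maturation list is low in AtHb1 hypoxia and WT control and spreads widely within AtHb1 control, the pollen list is high in WT control alone, and the hypoxia list is high under hypoxia in both genotypes.

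The gene of the transgene itself had a large negative interaction. The AtHb1 probe set (HB1, AT2G16060) cannot separate the transgene's transcript from the endogenous one. Its log2 signal was 10.65, 10.38 and 11.12 in AtHb1 hypoxia and 10.48, 12.06 and 11.93 in AtHb1 control, against 9.06, 9.07 and 9.14 in WT hypoxia and 6.14, 5.99 and 5.88 in WT control. The AtHb1 response was -0.78 (adjusted p = 0.0771), with overlapping groups, and the WT response 3.09, with all WT hypoxia arrays above all WT control arrays and below all AtHb1 arrays. The interaction was -3.87 (SE 0.43, adjusted p = 0.000143), and it was called in each fit that left out 1 array. AtHb1 control already stood above WT hypoxia, and a given amount of added transcript is a smaller log2 change at a higher level. The interaction therefore does not show how the endogenous gene responded in AtHb1. Within groups HB1 followed the late maturation list mean (r = 0.90). On the hemoglobin list the other member, HB2, had an interaction of -0.01.

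Many late maturation genes fell under hypoxia in AtHb1 siliques, many rose in WT siliques, and the difference was large. Of the 25 list members that the array annotation names, 17 were called and all 17 were negative, beside 1.73% of all 13436 annotation-named probe sets called, 1.32% negative and 0.417% positive. The list's median response was -0.96 in AtHb1 and 1.10 in WT, and its median interaction was -2.21, beside 0.02 over all probe sets. For the single responses 11 of the 25 were called down in AtHb1 and 11 up in WT. By class of interaction, 11 of the 17 ran in opposite directions, 3 responded less and 3 more in AtHb1. A further 9 members are named only through the study's table of differentially expressed genes, which was chosen on these samples and is no independent evidence, and 8 of them were called, all negative. The list itself was written with earlier results of these data known, so the 17 of 25 is no independent evidence either. With trend and robust 14 of the 17 were called.

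The farthest of all probe sets was AT1G54870, a short-chain dehydrogenase family gene listed with the late maturation genes. Its log2 signal was 5.48, 5.09 and 8.12 in AtHb1 hypoxia and 6.65, 10.98 and 10.83 in AtHb1 control, against 9.47, 9.61 and 9.80 in WT hypoxia and 7.66, 7.62 and 5.34 in WT control. Both high AtHb1 control arrays stood above every AtHb1 hypoxia array, AtHb1 control replicate 1 lay among them, and all WT hypoxia arrays exceeded all WT control arrays. The interaction was -6.02 (SE 1.41, adjusted p = 0.0127), a 64.7-fold difference, made of an AtHb1 response of -3.26 and a WT response of 2.76 (adjusted p = 0.0309 and 0.0772). It held in each fit without 1 array, with values of -7.43 to -5.25, and was not called with trend and robust (adjusted p = 0.0752). EM1 (AT3G51810), a group 1 LEA protein of the mature embryo, read 5.75, 5.33 and 7.83 in AtHb1 hypoxia and 6.28, 9.31 and 9.41 in AtHb1 control, against 8.24, 8.25 and 8.67 in WT hypoxia and 6.42, 6.56 and 5.11 in WT control. It had the same order of arrays, with AtHb1 control replicate 1 again among the AtHb1 hypoxia arrays, and an interaction of -4.39 (SE 1.03, adjusted p = 0.0131) that was also not called with trend and robust (adjusted p = 0.076). Its AtHb1 response of -2.03 missed the limit and its WT response of 2.36 passed (adjusted p = 0.0593 and 0.0399), which places it among the smaller responses. Its close relative GEA6 (AT2G40170), the other Em gene, was not called (interaction -1.76, adjusted p = 0.0508), but was called under some of the alternatives, among them the fit without AtHb1 control replicate 1 (-2.45).

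Other LEA genes had smaller spread and firmer calls. AT5G44310, a LEA protein gene, read 8.60, 7.67 and 8.68 in AtHb1 hypoxia and 9.42, 10.08 and 9.85 in AtHb1 control, against 8.25, 8.20 and 8.38 in WT hypoxia and 7.36, 7.49 and 6.62 in WT control. Here the AtHb1 groups did not overlap and neither did the WT groups, and the responses of -1.46 in AtHb1 and 1.12 in WT both passed. The interaction was -2.58 (SE 0.36, adjusted p = 0.000557) and was called in all alternatives run on single genes. AT3G17520, also a LEA protein gene, had an interaction of -3.67 (SE 0.64, adjusted p = 0.00252) and kept its call likewise, while AT3G15670 of the same family, at -4.32 (SE 0.90, adjusted p = 0.00679), missed it with trend and robust (adjusted p = 0.0501). A manganese superoxide dismutase gene, AT3G56350, read 10.01, 8.59 and 9.91 in AtHb1 hypoxia and 10.23, 11.29 and 10.97 in AtHb1 control, against 11.02, 11.08 and 11.06 in WT hypoxia and 9.82, 9.68 and 8.57 in WT control. All AtHb1 hypoxia arrays were below all AtHb1 control arrays and all WT hypoxia arrays above all WT control arrays, and the interaction was -3.02 (SE 0.52, adjusted p = 0.00215). The dehydrin RAB18 (AT5G66400), a classic abscisic acid marker, had an interaction of -2.75 (SE 0.63, adjusted p = 0.0109), and SMP1 (AT3G12960), a seed maturation protein, one of -2.81 (SE 0.59, adjusted p = 0.00723), and neither was called with trend and robust (adjusted p = 0.0665 and 0.0508). The list was not uniform: AT5G27980 had the highest interaction, 0.48, and 8 of the 25 annotation-named members were not called.

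Storage and oil body genes also had negative interactions, of smaller size. Of 9 annotation-named members of the storage list 5 were called, all negative, beside 1.32% of all annotation-named probe sets called negative, with median responses of -0.47 in AtHb1 and 0.63 in WT. All 4 members named through the study's table, which was chosen on these samples, were called negative too. AT2G25890, which codes for an oleosin that coats oil bodies, read 8.55, 7.80 and 8.49 in AtHb1 hypoxia and 9.39, 10.03 and 9.82 in AtHb1 control, against 9.43, 9.46 and 9.44 in WT hypoxia and 8.77, 8.75 and 8.03 in WT control. Its AtHb1 groups did not overlap, its WT groups did not overlap, and the interaction was -2.39 (SE 0.31, adjusted p = 0.000337). BETA-TIP (AT1G17810), a tonoplast aquaporin of protein storage vacuoles, read 11.48, 10.71 and 11.32 in AtHb1 hypoxia and 11.97, 12.25 and 12.30 in AtHb1 control, against 12.51, 12.59 and 12.60 in WT hypoxia and 11.72, 11.60 and 11.08 in WT control. WT hypoxia was the highest group and AtHb1 hypoxia and WT control overlapped at the bottom, giving an interaction of -2.10 (SE 0.26, adjusted p = 0.000248). Its relative TIP3;1 (AT1G73190) had an interaction of -1.98 (SE 0.23, adjusted p = 0.00019), with responses of -1.18 in AtHb1 and 0.79 in WT. ATPXG2 (AT5G55240), a peroxygenase of the caleosin family, had one of -1.77 (SE 0.26, adjusted p = 0.000788), with the WT rise of 1.24 passing and the AtHb1 change of -0.52 not (adjusted p = 0.0556). OLEO3, an oleosin, was the least changed member at -0.12. The glyoxylate cycle gene ICL (AT3G21720), for isocitrate lyase, had responses of -0.53 in AtHb1 and 1.11 in WT, with an interaction of -1.64 (SE 0.25, adjusted p = 0.00106). The second enzyme of that cycle, malate synthase (MLS, AT5G03860), was at -1.94 (SE 0.45, adjusted p = 0.0118) and was not called with trend and robust (adjusted p = 0.0645). Its responses were -0.97 in AtHb1 and 0.97 in WT (adjusted p = 0.0416 and 0.0509), which placed it in no class.

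Regulators of seed maturation and dormancy were among the calls. DOG1 (AT5G45830), which sets the depth of seed dormancy, read 8.66, 7.69 and 8.40 in AtHb1 hypoxia and 8.93, 9.50 and 9.43 in AtHb1 control, against 9.36, 9.33 and 9.34 in WT hypoxia and 8.62, 8.64 and 8.00 in WT control. All AtHb1 hypoxia arrays lay below all AtHb1 control arrays, all WT hypoxia arrays above all WT control arrays, and the interaction was -1.96 (SE 0.31, adjusted p = 0.00127). DPBF2 (AT3G44460, also bZIP67), a bZIP factor of seed filling, read 8.73, 8.19 and 8.26 in AtHb1 hypoxia and 9.54, 9.23 and 9.53 in AtHb1 control, against 9.09, 9.12 and 9.04 in WT hypoxia and 8.86, 8.72 and 8.82 in WT control. The AtHb1 arrays separated by treatment, the WT rise was 0.29 (adjusted p = 0.136), and the interaction was -1.33 (SE 0.17, adjusted p = 0.000382). AGL67 (AT1G77950), a MADS-box gene, and EEL (AT2G41070), a bZIP factor acting on LEA genes, had AtHb1 changes of -0.56 and -0.33 that did not pass (adjusted p = 0.0619 and 0.0796) and rose in WT by 1.18 and 0.87. NCED4 (AT4G19170), a carotenoid cleavage dioxygenase gene, fell by 0.78 in AtHb1 and rose by 0.57 in WT. LEC2, a master regulator of embryogenesis, went the other way at 0.89, which passed the adjusted p but not the 2-fold limit. BZIP53, a partner of the seed bZIP factors, was at -0.26.

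**Figure D3:**
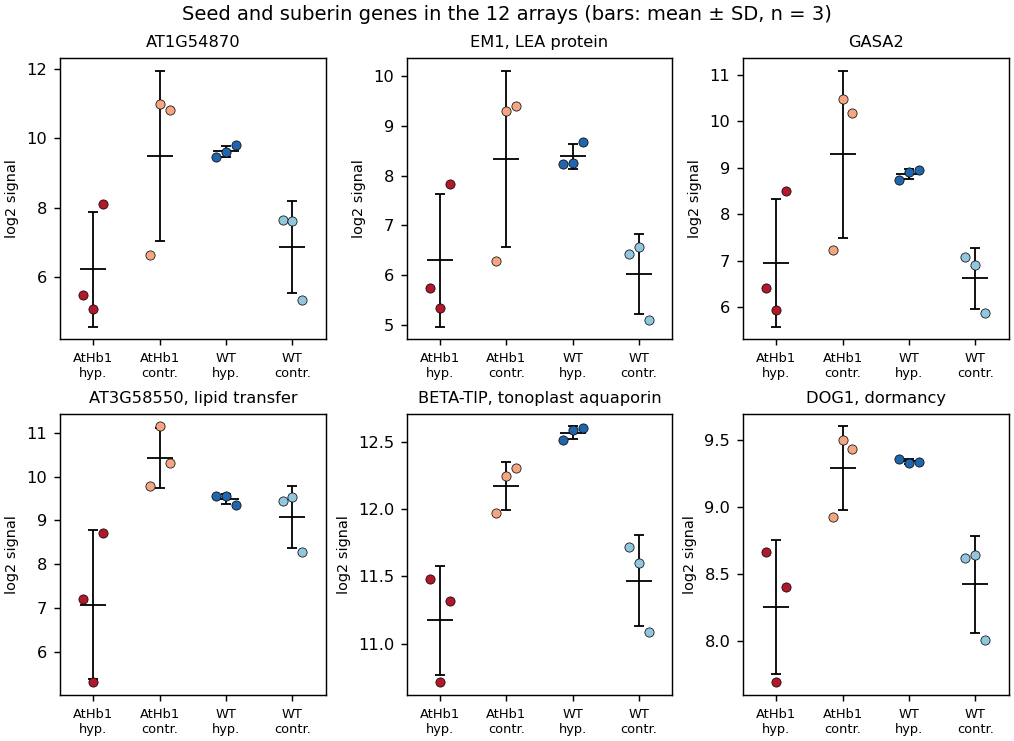
Log2 signal of 6 seed and suberin genes on each array (points) with the group mean ± SD (n = 3). In all 6 AtHb1 hypoxia averages below AtHb1 control and WT hypoxia averages above WT control, and the spread within AtHb1 hypoxia, AtHb1 control and WT control exceeds that within WT hypoxia.

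Several large interactions belonged to a few members of larger gene families. GASA2 (AT4G09610), a gibberellin-regulated cysteine-rich peptide gene, read 6.41, 5.94 and 8.51 in AtHb1 hypoxia and 7.23, 10.48 and 10.17 in AtHb1 control, against 8.73, 8.91 and 8.95 in WT hypoxia and 7.08, 6.91 and 5.88 in WT control. WT hypoxia lay above all WT control arrays, and 2 of the 3 AtHb1 control arrays lay above all AtHb1 hypoxia arrays. Its interaction was -4.58 (SE 1.02, adjusted p = 0.00983) and that of its neighbour GASA3 (AT4G09600) was -4.11 (SE 0.92, adjusted p = 0.0101), and neither was called with trend and robust (adjusted p = 0.0635 and 0.0646). The 6 annotation-named GASA genes had interactions of -0.47 to 0.25. XTH25 (AT5G57550), a xyloglucan endotransglucosylase of the cell wall, had an interaction of -5.19 (SE 1.28, adjusted p = 0.0166), not called with trend and robust (adjusted p = 0.088). Its responses of -2.50 in AtHb1 and 2.70 in WT did not pass (adjusted p = 0.0609 and 0.0578), so it fell in no class. The 8 annotation-named XTH genes had interactions of -0.21 to 0.78. Over all annotation-named probe sets 1.32% were called negative and 0.417% positive. Among 14 annotation-named genes of the major latex protein family AT1G14940, AT1G14930 and AT1G14950 were called at -4.94, -4.21 and -1.49, and AT4G23680 was called at 1.21. The first pair was not called with trend and robust (adjusted p = 0.0653 and 0.0654), nor was AT4G23680 without WT control replicate 3 (0.98). The family's median interaction was -0.09. BGLU19 (AT3G21370), a beta-glucosidase, and NSP2 (AT2G33070), a nitrile-specifier protein of glucosinolate breakdown, had AtHb1 responses of -3.08 and -3.10, with WT changes of 1.77 and 1.61 that did not pass (adjusted p = 0.148 and 0.173). Their interactions were -4.85 (SE 1.10, adjusted p = 0.0109) and -4.71 (SE 1.06, adjusted p = 0.0103), and they too were not called with trend and robust (adjusted p = 0.0679 and 0.0654). Most genes of this paragraph followed the late maturation list mean within groups. The r was 0.98 for XTH25 and BGLU19, 0.97 for AT1G14940, and 0.96 for AT1G14930 and NSP2. It was 0.95 for GASA2, 0.92 for GASA3, 0.63 for AT1G14950 and -0.35 for AT4G23680. Whether they responded apart from that list was not tested.

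Several genes for suberin and lipid transfer fell in AtHb1 and did not pass for the WT response. Suberin is a waxy polymer of fatty alcohols, acids and phenolics laid down in seed coats and roots. Of 5 annotation-named members 3 were called, all negative, beside 1.32% of annotation-named probe sets, with a median response of -2.64 in AtHb1 and 0.25 in WT. Of 6 members named through the study's table, which was chosen on these samples, 4 were called, also negative. All 7 responded more in AtHb1. AT3G58550, a lipid transfer protein gene, read 7.21, 5.30 and 8.72 in AtHb1 hypoxia and 9.78, 11.15 and 10.32 in AtHb1 control, against 9.56, 9.56 and 9.35 in WT hypoxia and 9.45, 9.53 and 8.27 in WT control. Every AtHb1 hypoxia array was below every AtHb1 control array and the WT groups overlapped. The interaction was -3.75 (SE 0.86, adjusted p = 0.0115), not called with trend and robust (adjusted p = 0.07). FACT (AT5G63560), the fatty alcohol caffeoyl-CoA transferase, read 6.93, 5.83 and 7.89 in AtHb1 hypoxia and 8.88, 10.35 and 9.36 in AtHb1 control, against 8.81, 8.92 and 8.73 in WT hypoxia and 8.73, 8.95 and 7.72 in WT control. The groups stood as for the lipid transfer gene, and the interaction was -2.996 (SE 0.63, adjusted p = 0.0069). FAR4 (AT3G44540), a fatty acyl-CoA reductase that makes suberin alcohols, fell by 1.81 in AtHb1 against a WT change of 0.58 (adjusted p = 0.244), with an interaction of -2.40 (SE 0.45, adjusted p = 0.00362). A second lipid transfer gene, AT2G18370, had one of -3.61 (SE 0.73, adjusted p = 0.00561). AtHb1 hypoxia replicate 2 read lowest for all 4, at 5.30, 5.83, 5.61 and 5.44. Within groups these 4 followed the late maturation list mean, with r of 0.79, 0.87, 0.93 and 0.70 in the same order. Whether they responded apart from that list was not tested.

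Several nitrate and sulfur assimilation genes responded less in AtHb1 siliques than in WT siliques, where they rose. NIR1 (AT2G15620), nitrite reductase, read 7.67, 7.51 and 7.52 in AtHb1 hypoxia and 7.44, 7.21 and 7.37 in AtHb1 control, against 10.61, 10.71 and 10.70 in WT hypoxia and 8.34, 8.50 and 8.79 in WT control. The 4 groups did not overlap, with WT hypoxia highest and both AtHb1 groups below WT control. The AtHb1 response was 0.23 (adjusted p = 0.122), the WT response 2.13, and the interaction -1.90 (SE 0.15, adjusted p = 1.09e-05). NIA2 (AT1G37130), nitrate reductase, changed by -0.24 in AtHb1 (adjusted p = 0.447) and rose by 1.45 in WT, with an interaction of -1.69 (SE 0.30, adjusted p = 0.00255). LBD37 (AT5G67420), a nitrogen-responsive repressor, had an interaction of -1.48 (SE 0.28, adjusted p = 0.00414). Of 3 nitrate genes that the annotation names 1 was called, beside 1.32% of annotation-named probe sets called negative. All 5 named through the study's table were called negative, but that table lists genes chosen as differentially expressed on these same samples. The annotation-named one, AT1G68670, a GARP transcription factor of the HHO family, read 7.46, 7.84 and 7.76 in AtHb1 hypoxia and 6.97, 7.49 and 7.31 in AtHb1 control, against 8.76, 8.71 and 8.56 in WT hypoxia and 6.42, 6.21 and 6.33 in WT control, with WT hypoxia above and WT control below all 6 AtHb1 arrays. Its interaction was -1.93 (SE 0.18, adjusted p = 4.51e-05). LSU1 (AT3G49580) and ATSDI1 (AT5G48850), both induced by low sulfur, changed by -0.69 and -0.56 in AtHb1 (adjusted p = 0.0722 and 0.119) and rose by 1.82 and 1.84 in WT. Their interactions were -2.51 (SE 0.37, adjusted p = 0.000787) and -2.40 (SE 0.35, adjusted p = 0.000739), while the 2 annotation-named sulfur genes were at -0.78 and 0.05. Within groups the r with the late maturation list mean was 0.64 for LSU1 and 0.84 for ATSDI1, against -0.64 for NIR1 and 0.26 for NIA2. Whether LSU1 and ATSDI1 responded apart from that list was not tested. CA2 (AT5G14740), a carbonic anhydrase, had a response of 0.07 in AtHb1 (adjusted p = 0.695) and rose by 1.22 in WT, with an interaction of -1.16 (SE 0.15, adjusted p = 0.000379).

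Some genes of touch and defence signalling also rose less in AtHb1 than in WT, among them 1 of 3 annotation-named and 2 of 4 study-named WRKY factors called, beside 1.32% of annotation-named probe sets and 1.51% of all probe sets called negative. TCH3 (AT2G41100), a touch-induced calmodulin-like protein, read 10.13, 10.34 and 10.16 in AtHb1 hypoxia and 9.87, 9.89 and 9.67 in AtHb1 control, against 11.01, 10.86 and 10.98 in WT hypoxia and 7.02, 7.25 and 8.43 in WT control. WT control was far below the other groups, AtHb1 hypoxia exceeded AtHb1 control by a small step, and WT hypoxia was highest. The AtHb1 response of 0.40 did not pass (adjusted p = 0.258), the WT response was 3.39, and the interaction was -2.99 (SE 0.35, adjusted p = 0.000178). WRKY53 (AT4G23810), a stress and senescence regulator, read 8.52, 8.25 and 8.08 in AtHb1 hypoxia and 7.75, 7.88 and 7.62 in AtHb1 control, against 7.74, 7.78 and 7.98 in WT hypoxia and 5.64, 5.73 and 5.82 in WT control. AtHb1 control already lay at the level of WT hypoxia, WT control was lowest, and the responses of 0.53 in AtHb1 and 2.11 in WT both passed, with an interaction of -1.57 (SE 0.15, adjusted p = 7.71e-05). WRKY33 (AT2G38470), a regulator of camalexin defence, had an AtHb1 response of 0.02 (adjusted p = 0.931) and rose by 1.57 in WT. WRKY18 (AT4G31800) had an interaction of -1.06 (SE 0.20, adjusted p = 0.00347), which fell below the 2-fold limit without WT control replicate 1 or 2 (-0.999 and -0.996) or AtHb1 control replicate 2 (-0.88).

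Several of the genes with the smallest p-values for the interaction stand outside the lists. AT5G19240, coding for a GPI-anchored glycoprotein, read 7.83, 8.19 and 8.01 in AtHb1 hypoxia and 7.34, 7.91 and 7.52 in AtHb1 control, against 8.94, 8.96 and 8.997 in WT hypoxia and 6.09, 6.001 and 6.03 in WT control. All 6 AtHb1 arrays lay between WT control and WT hypoxia, and the interaction was -2.50 (SE 0.17, adjusted p = 4.73e-06). AT2G38820, a gene of unknown function, read 8.62, 8.64 and 8.55 in AtHb1 hypoxia and 8.61, 8.72 and 8.66 in AtHb1 control, against 8.92, 8.81 and 8.96 in WT hypoxia and 7.57, 7.44 and 7.46 in WT control, with WT control alone below the rest. Its interaction was -1.47 (SE 0.10, adjusted p = 4.73e-06). AT3G19030 had an AtHb1 response of -0.17 (adjusted p = 0.467) and rose in WT by 2.34, with an interaction of -2.51 (SE 0.22, adjusted p = 2.45e-05). AT5G44580, likewise of unknown function, instead ran in opposite directions, with -0.64 in AtHb1 and 0.91 in WT, as did STZ (AT1G27730), the zinc finger repressor of abiotic stress, with -0.35 in AtHb1 and 1.07 in WT. Their interactions were -1.55 (SE 0.11, adjusted p = 7.76e-06) and -1.42 (SE 0.11, adjusted p = 1.26e-05).

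Among AP2/ERF factors 3 of 5 annotation-named members were called negative, beside 1.32% of annotation-named probe sets, with median responses of 0.13 in AtHb1 and 2.48 in WT, and of the 10 named through the study's table, 2 were negative and 1 positive. AT1G75490, of the DREB subfamily, read 7.83, 7.30 and 8.19 in AtHb1 hypoxia and 7.64, 8.60 and 8.53 in AtHb1 control, against 9.06, 9.11 and 9.20 in WT hypoxia and 6.73, 6.96 and 6.22 in WT control. WT hypoxia lay above and WT control below all 6 AtHb1 arrays, and the interaction was -2.96 (SE 0.35, adjusted p = 0.000207). Within groups AT1G75490 followed the late maturation list mean (r = 0.97), and whether it responded apart from that list was not tested. AT1G64380 and ERF53 (AT2G20880), a drought-induced factor, rose in both genotypes, by 1.51 and 0.77 in AtHb1 and by 2.74 and 2.02 in WT. HSFC1 (AT3G24520), a heat shock factor, rose by 0.50 in AtHb1 and 2.46 in WT. Its interaction was -1.97 (SE 0.20, adjusted p = 0.000101), while the 3 annotation-named heat shock genes had interactions of -0.34 to 0.24. Of the receptor kinases 2 of 6 annotation-named and 4 of 9 study-named members were called, all negative, against the same 1.32% and against 1.51% of all probe sets, the study's table having been chosen on these samples. CRK10 (AT4G23180), a cysteine-rich kinase, rose by 1.16 in AtHb1 and 2.87 in WT, with an interaction of -1.71 (SE 0.21, adjusted p = 0.000303). Of 4 study-named calcium genes TCH3 was called, and of 14 annotation-named ones AT5G39670, an EF-hand protein gene, was. It fell by 1.15 in AtHb1 and rose by 0.79 in WT. The salicylate marker genes PR1 (AT2G14610), BGL2 (AT3G57260) and PR5 (AT1G75040), known as pathogenesis-related proteins, had interactions of -1.89, -1.63 and -1.84, none of them called with trend and robust (adjusted p = 0.0692, 0.0508 and 0.0587), while WAK1 (AT1G21250), a wall-associated kinase, was at -1.15 (SE 0.16, adjusted p = 0.000441). The 10 study-named jasmonate genes had interactions of -1.54 to -0.05, with a median of -0.56, and none passed both limits, while JMT (AT1G19640), a jasmonate methyltransferase and the list's 1 annotation-named member, was at 0.88 (adjusted p = 0.000899), under 2-fold. VSP1 (AT5G24780), a vegetative storage protein, was the lowest of the study-named ones (adjusted p = 0.287) and was called without WT control replicate 3 (-2.68), which read 12.60 against 9.12 and 9.19 in the other WT control arrays.

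The core hypoxia genes, by contrast, rose in both genotypes. Of 26 annotation-named members 19 were called up in AtHb1 and 19 in WT, beside 0.673% and 1.53% of all probe sets. Their median responses were 1.75 in AtHb1 and 2.02 in WT, with a median interaction of -0.07. For the interaction 2 were called negative and 1 positive, beside 1.32% and 0.417% of all annotation-named probe sets. ADH1 (AT1G77120), alcohol dehydrogenase, read 12.63, 12.46 and 12.59 in AtHb1 hypoxia and 10.44, 10.40 and 10.50 in AtHb1 control, against 12.50, 12.47 and 12.47 in WT hypoxia and 9.86, 9.51 and 9.47 in WT control. Both hypoxia groups overlapped at the top, AtHb1 control lay above WT control, and the interaction of -0.75 (SE 0.13, adjusted p = 0.00251) was under 2-fold. AT4G33070, the pyruvate decarboxylase gene PDC1, rose by 3.61 in AtHb1 and 3.80 in WT, with an interaction of -0.19 that did not pass (SE 0.14, adjusted p = 0.42). ACO1 (AT2G19590), an ethylene-forming oxidase, was at -0.35 (adjusted p = 0.207). RBOHD (AT5G47910), an NADPH oxidase, was at -0.86 (adjusted p = 0.00382), short of the 2-fold limit.

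A few core genes did rise less in AtHb1. AT4G10270, a wound-responsive family gene, read 12.47, 12.09 and 11.97 in AtHb1 hypoxia and 9.53, 9.75 and 9.25 in AtHb1 control, against 12.51, 12.33 and 12.44 in WT hypoxia and 8.20, 8.39 and 8.00 in WT control. The hypoxia groups overlapped, and every AtHb1 control array was above every WT control array. The rise was 2.67 in AtHb1 and 4.23 in WT. The interaction was -1.56 (SE 0.20, adjusted p = 0.000337). AT5G15120, the plant cysteine oxidase gene PCO1, rose by 1.56 in AtHb1 and 2.93 in WT, and FTM1 (AT1G43800), a stearoyl desaturase family gene, by 1.91 in AtHb1 and 3.63 in WT. Their interactions were -1.37 (SE 0.14, adjusted p = 0.000112) and -1.73 (SE 0.20, adjusted p = 0.000196). For each of these 3 genes every AtHb1 control array exceeded every WT control array. Of 16 hypoxia genes named through the study's table, 4 were called, all negative, AtHb1 itself among them, beside 1.51% of all probe sets. That table was chosen on these samples. The gene that rose more in AtHb1 was AT5G26200, for a mitochondrial carrier protein, with 8.95, 8.88 and 9.28 in AtHb1 hypoxia and 4.84, 5.32 and 5.12 in AtHb1 control, against 7.87, 7.79 and 8.01 in WT hypoxia and 5.10, 4.89 and 5.07 in WT control. The control groups overlapped and AtHb1 hypoxia was highest, giving an interaction of 1.08 (SE 0.18, adjusted p = 0.00154).

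**Figure D4:**
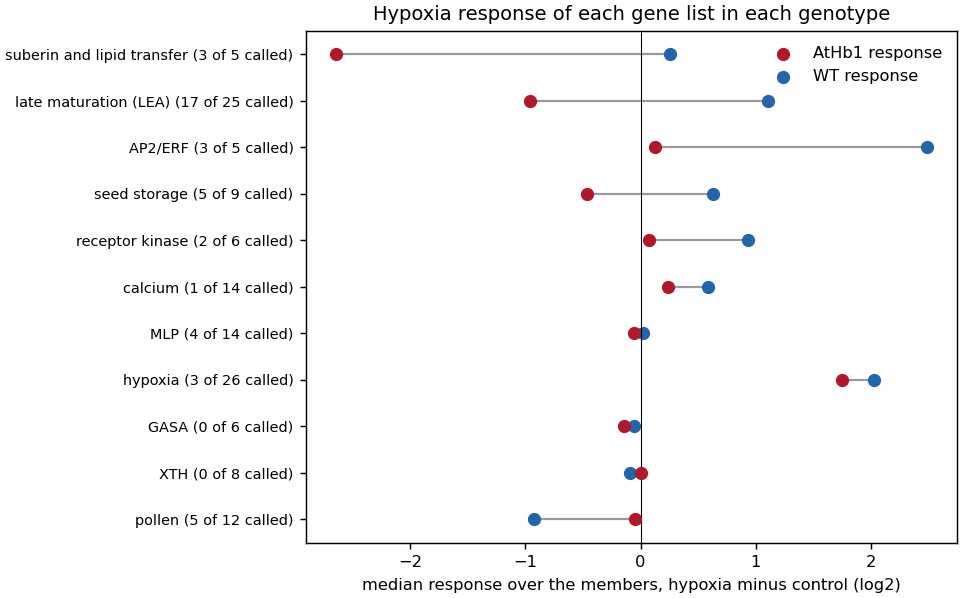
Median hypoxia response (hypoxia minus control, log2) over the annotation-named members of 11 gene lists, in AtHb1 (red) and WT (blue), with the number of members called for the interaction. The suberin, late maturation and storage lists lie below 0 in AtHb1 and above 0 in WT, the hypoxia list is high in both, and the pollen list is near 0 in AtHb1 and below 0 in WT.

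On the positive side, 60 probe sets changed less in AtHb1 and fell in WT. Pollen genes were among them: 5 of 12 annotation-named members were called, all positive, beside 0.417% of all annotation-named probe sets, as were 6 of 7 named through the study's table. The list's mean log2 signal was 5.72, 6.08 and 5.80 in AtHb1 hypoxia and 6.03, 5.92 and 5.78 in AtHb1 control, against 5.78, 5.76 and 5.74 in WT hypoxia and 6.54, 6.52 and 6.54 in WT control. WT control stood above the other 9 arrays, which overlapped. PGA4 (AT1G02790), a polygalacturonase of pollen, read 6.76, 7.10 and 6.98 in AtHb1 hypoxia and 7.13, 7.24 and 6.76 in AtHb1 control, against 6.79, 6.93 and 7.05 in WT hypoxia and 8.51, 8.47 and 8.42 in WT control, with an interaction of 1.45 (SE 0.17, adjusted p = 0.000167). AT3G07820, another polygalacturonase gene, and RALFL9 (AT1G61566), a signalling peptide gene, had interactions of 1.59 (SE 0.29, adjusted p = 0.00304) and 1.51 (SE 0.31, adjusted p = 0.0068). AT3G07820 averaged 5.71 in AtHb1 hypoxia, 5.79 in AtHb1 control and 5.57 in WT hypoxia. These lie under the log2 signal of 6 taken as dim, so its AtHb1 response may be understated. The photosynthesis and seed coat lists, read as markers of silique wall and seed coat, had median interactions of -0.19 and 0.03 over 3 annotation-named genes each. The mean log2 signal of the photosynthesis list was 12.30 and 12.46 in AtHb1 hypoxia and control, against 12.70 and 12.59 in WT hypoxia and control, and that of the seed coat list was 10.89 and 10.75 in AtHb1 hypoxia and control, against 11.33 and 11.36 in WT hypoxia and control. The photosynthesis list has 2 more members, named through the study's table, which was chosen on these samples. Their interactions were -1.16 (CA2, called) and -0.79, which passed the adjusted p alone. Whether pollen or flower remains in the pools had a part in the calls of pollen genes was not tested.

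Other genes of this class are not pollen markers. ASPGB1 (AT3G16150), an asparaginase that releases ammonium from asparagine, read 8.86, 9.11 and 9.12 in AtHb1 hypoxia and 9.06, 9.19 and 9.30 in AtHb1 control, against 9.04, 9.16 and 9.04 in WT hypoxia and 10.75, 10.69 and 10.74 in WT control. WT control stood above all others, AtHb1 changed by -0.15 (adjusted p = 0.215) and WT by -1.65, and the interaction was 1.495 (SE 0.12, adjusted p = 1.39e-05). AT3G52550, of unknown function, read 9.13, 9.15 and 9.10 in AtHb1 hypoxia and 9.11, 9.08 and 9.16 in AtHb1 control, against 7.81, 7.81 and 7.91 in WT hypoxia and 9.29, 9.26 and 9.34 in WT control. Here WT hypoxia stood alone below the rest, the AtHb1 groups overlapped, and the interaction was 1.47 (SE 0.09, adjusted p = 3.14e-06), the smallest adjusted p of all probe sets with 1 named gene. AT3G07340, a bHLH factor, had the highest interaction among the named genes, 1.83 (SE 0.20, adjusted p = 0.000143), from 0.10 in AtHb1 and -1.74 in WT, with both AtHb1 groups below both WT groups. It averaged 5.35 in AtHb1 hypoxia, 5.25 in AtHb1 control and 5.83 in WT hypoxia, all under the dim limit of 6. Its AtHb1 response may therefore be understated. AT1G10770, an invertase and pectin methylesterase inhibitor family gene, was at 1.74 (SE 0.21, adjusted p = 0.000248). Of the glutaredoxin genes AT3G62960 belonged here, at 1.55.

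In 32 probe sets AtHb1 rose and WT fell. LAC2 (AT2G29130), a laccase that oxidises phenolics in the wall, read 7.74, 7.59 and 7.49 in AtHb1 hypoxia and 7.19, 7.28 and 7.42 in AtHb1 control, against 7.15, 7.04 and 7.12 in WT hypoxia and 8.76, 8.36 and 8.58 in WT control. The 4 groups did not overlap, both AtHb1 groups lay between the 2 WT groups, and the responses were 0.31 in AtHb1 and -1.47 in WT. The interaction was 1.78 (SE 0.14, adjusted p = 1.39e-05). FLA13 (AT5G44130), a fasciclin-like arabinogalactan protein, read 8.58, 8.17 and 8.12 in AtHb1 hypoxia and 7.21, 7.12 and 7.32 in AtHb1 control, against 10.27, 10.17 and 10.13 in WT hypoxia and 10.63, 10.71 and 11.43 in WT control. All AtHb1 arrays were below all WT arrays, hypoxia was above control in AtHb1 and below control in WT, and the interaction was 1.80 (SE 0.24, adjusted p = 0.00042). ENODL8 (AT1G64640), an early nodulin-like protein, and TED6 (AT1G43790), which acts in xylem wall formation, had interactions of 1.53 (SE 0.14, adjusted p = 4.63e-05) and 1.45 (SE 0.15, adjusted p = 0.000112). A terpene synthase gene, AT3G14520, was at 1.68 (SE 0.26, adjusted p = 0.000918), and DSEL (AT4G18550), a lipase of seedling oil use, at 1.57 (SE 0.20, adjusted p = 0.000367). A glutaredoxin gene, AT2G47880, was at 1.47. AGP7 (AT5G65390), an arabinogalactan protein, was at 1.04 and fell under the 2-fold limit without any 1 of 4 arrays (0.98 to 0.99) or without AtHb1 control replicate 1 and WT control replicate 3 together (0.94).

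Positive calls were spread over several classes in the auxin-induced SAUR genes. Of 13 measured, all named through the study's table and so chosen on these samples, 5 were called and all 5 were positive, beside 0.497% of all probe sets called positive. The lowest 2 of the 13 were at -0.55 and -0.38, and the second of these passed the adjusted p alone (AT1G72430, adjusted p = 0.0495). AT1G29450, which rose in AtHb1 and fell in WT, was at 1.22 (SE 0.15, adjusted p = 0.000328). AT1G29430, at 1.46, fell in WT with an AtHb1 response of 0.04 (adjusted p = 0.927), and was not called with trend and robust (adjusted p = 0.0632). It averaged 5.25 in AtHb1 hypoxia, 5.21 in AtHb1 control and 5.79 in WT hypoxia, under the dim limit of 6, so its AtHb1 response may be understated. AT1G29460, at 1.27, was placed in no class and was called in only 3 of the 12 fits that left out 1 array (largest adjusted p = 0.0767), and not with trend and robust (adjusted p = 0.0957). SAUR genes of this cluster are near copies of each other, so their probe sets may share signal.

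The class with a larger rise in AtHb1 was the smallest, at 19 probe sets. TOE3 (AT5G67180), an AP2-type repressor of flowering, read 8.82, 8.64 and 8.98 in AtHb1 hypoxia and 6.32, 6.83 and 6.61 in AtHb1 control, against 7.53, 7.73 and 7.92 in WT hypoxia and 6.60, 6.85 and 6.92 in WT control. The control groups overlapped, AtHb1 hypoxia was above WT hypoxia, and the rises of 2.23 in AtHb1 and 0.93 in WT gave an interaction of 1.30 (SE 0.19, adjusted p = 0.000799). TRY (AT5G53200), a MYB inhibitor of trichome fate, read 8.78, 8.91 and 8.98 in AtHb1 hypoxia and 7.55, 8.00 and 7.83 in AtHb1 control, against 7.68, 7.66 and 8.02 in WT hypoxia and 7.68, 7.83 and 7.96 in WT control. AtHb1 hypoxia stood alone above 3 overlapping groups, and the interaction was 1.13 (SE 0.17, adjusted p = 0.00101), falling to 0.94 without AtHb1 control replicate 1 and WT control replicate 3. AT3G23450, of unknown function, and CYP96A2 (AT4G32170), a cytochrome P450, had the same highest group, with interactions of 1.33 (SE 0.28, adjusted p = 0.00759) and 1.15 (SE 0.23, adjusted p = 0.00478). CYP96A2 averaged 5.06 in AtHb1 control, 5.73 in WT hypoxia and 5.67 in WT control, all under the dim limit of 6. IQD10 (AT3G15050), a calmodulin-binding protein gene, rose by 0.92 in AtHb1 against a WT change of -0.30 (adjusted p = 0.317). PRP2 (AT2G21140), a proline-rich wall protein, was at 1.21, and was not called without WT control replicate 3 (0.87) or with trend and robust (adjusted p = 0.0573).

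**Figure D5:**
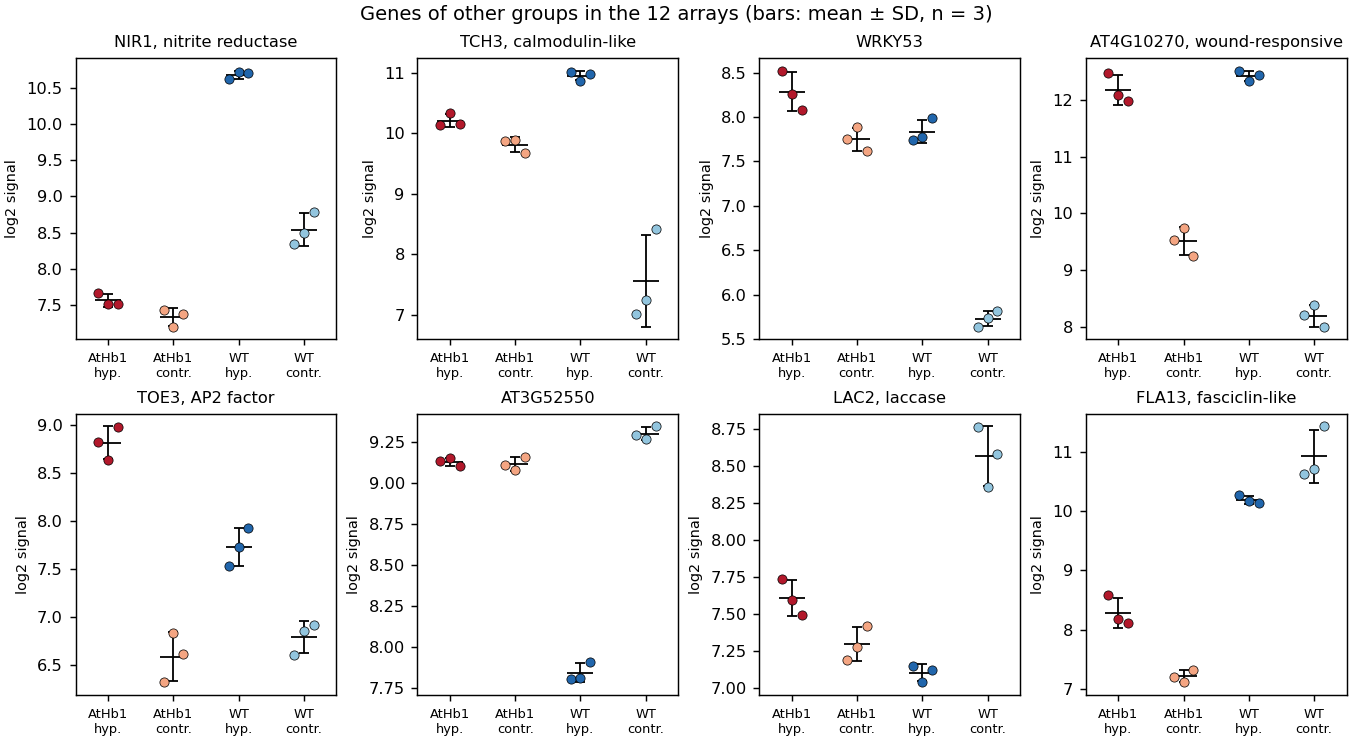
Log2 signal of 8 genes outside the seed lists on each array (points) with the group mean ± SD (n = 3), ordered as NIR1, TCH3, WRKY53, AT4G10270, TOE3, AT3G52550, LAC2 and FLA13. The first 4 rise less in AtHb1 than in WT, TOE3 rises more, AT3G52550 falls in WT alone, and LAC2 and FLA13 rise in AtHb1 and fall in WT.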

How the data were processed

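RNA of 12 silique pools was hybridised to Affymetrix ATH1 arrays, which read each gene through a set of short probes. The authors took the scans through MAS 5.0 and applied RMA, which corrects background, equalises the distributions of the arrays and summarises the probes of each set, and deposited log2 signals. They carry no detection calls, so dim probe sets stay in the tests, and RMA assumes like distributions on all arrays. The scale is log2 signal per array, not centred and not a ratio.

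All 12 arrays entered 1 fit in limma 3.58.1 (R 4.3.3) with a mean per group, as the study's methods name limma, Benjamini-Hochberg adjustment and limits of 0.05 and 2-fold. Contrasts were moderated with eBayes and adjusted over 22746 probe sets, with the 64 AFFX controls left out. The fit was first tested on simulated data. Precision rests on the number of arrays, 3 a group.

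The annotation names 1 gene for 13436 probe sets, several for 503 (not named here), and 490 more take their gene from the study's table of differentially expressed genes. Of the rest, 8240 stay unnamed. Lists of genes count 1 probe set a gene, the brightest. The members and lists were chosen with earlier results of these data known. Genes selected for naming were AtHb1, the 10 lowest, 10 highest and 10 smallest adjusted p-values, and the 8 largest of each class and direction. Up to 4 called members of each list (the farthest one where none was called) and genes the study contrasts between genotypes were added. Not all of them are described above, and the counts for named genes below cover them all. Among the contrasted genes not described above, HVA22B and ProT3 had called interactions of -2.24 and -1.30. AOX1D, MPK3, MKK9, ACA1 and TIP2 were at -0.94, -0.80, -0.75, -0.67 and -0.67, passing the adjusted p but not 2-fold. List members given beside the selected genes without a call were chosen after their values were seen. Alternatives changed the fold limit, the adjustment, the moderation (trend and robust), array weights, the normalization, filters on dim and shared probe sets, an RNA quality covariate, the replicate number as a block, and each array in turn.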

Additional observations from a re-analysis of the deposited data

Results flagged for a closer look

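Results in which the hypoxia effect differed between the genotypes by a test of the difference itself, the interaction term in limma, were the following. The interaction was called for 456 probe sets (2.00%), of which 195 responded less, 112 more and 138 in the opposite direction in AtHb1. Without a limit on the fold 2793 probe sets passed (12.3%), 1587 positive and 1206 negative, so that the surplus of negative calls appears with the fold limit and not without it. Called members were 17 of 25 for the late maturation list, 5 of 9 for the storage list and 5 of 12 for the pollen list, counting genes the annotation names. Over all annotation-named probe sets 1.73% were called, 1.32% negative and 0.417% positive. These lists were written with earlier results of these data known.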

How the results depend on the processing

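The interaction was called for 456 probe sets and 72.7% to 77.5% of the calls were negative in the fits at an adjusted p under 0.05 and 2-fold. No fold limit gave 2793 probe sets, 1206 negative and 1587 positive, of which 1125 responded less, 1162 more and 282 in the opposite direction in AtHb1, and a 1.5-fold limit gave 1410, with 623, 486 and 255. Unadjusted p gave 73 more and 229 opposite. Asking 2-fold of each response left 17 opposite, and signs of the estimates alone gave 97 less, 16 more and 343 opposite. Leaving out 1 array gave 400 (without AtHb1 hypoxia replicate 2) to 534 (without AtHb1 hypoxia replicate 1) in all, 178 to 220 less, 68 to 145 more, 93 to 200 opposite, and 228 to 305 for the AtHb1 and 402 to 426 for the WT response. Of the 456, 312 (68.4%) were called in each such fit. Without AtHb1 control replicate 1 and WT control replicate 3, chosen after seeing the data, 463 were called, 399 of them shared. Trend and robust gave 396, array weights 466, the RNA quality covariate 463, a second quantile normalization 453, median centring 459, and leaving out dim or shared probe sets 462 and 431. No pairing by the replicate number was seen: same-numbered arrays deviated together with r of -0.13 to 0.12, and 2 of 18 pairs were over 0.1. Only 3 arrays correlated best with their own number. Different-numbered arrays had r of -0.22 to 0.22, so this check cannot exclude a weak pairing. With the replicate number as a block 459 were called, 455 shared. For named genes, 2364 values kept their side, 52 lost and 10 gained the call, and 4 reversed, all of MYBR1 (0.06, not called): the interaction of MYBR1 was -0.0143 with the covariate, -0.0307 without both arrays, and -0.138 to 0.212 without 1 array, below 0 without WT control replicate 1 or AtHb1 hypoxia replicate 1. The cause was not tested. RMA values carry no background level, so changes of dim genes may be understated.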
